A study of Mus musculus with 16 samples.

Results

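Cytosolic molecular chaperones were examined here as the genes whose symbol on the array begins with Hsp or Dnaj or names a CCT subunit from Cct2 to Cct8. Hspa5, Hsp90b1, Dnajb9, Hspd1, Hspe1 and Hspa9, which work in the endoplasmic reticulum (ER) or the mitochondria, and a gene of the Hspg name were left out. This took 63 of the 12393 genes tested, each represented by its probe set (a group of probes for 1 transcript) with the highest mean over the 16 arrays. The rule goes by name, so some members known in the ER or in mitochondria were kept. By class the members were 8 subunits of the CCT ring, 1 HSP90 (Hsp90aa1), 7 of the HSP70 family, 4 HSP110 or exchange factor genes, 4 DNAJA, 11 DNAJB, 22 DNAJC and 6 small HSP genes. Of these, 49 had a highest group mean at or above 5.37, the median of all values on the log2 scale, and 14 lay below it. Hsp90ab1 was not analysed here.

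HSP70 proteins bind and release unfolded protein stretches in a cycle driven by ATP. J-domain proteins (the DNAJ families) bring clients and trigger ATP hydrolysis, and exchange factors such as the HSP110 proteins let ADP go. Part of the clients are handed on to HSP90, while actin, tubulin and many proteins with WD40 repeats fold inside the closed chamber of the CCT ring. Heat shock factor 1 (HSF1) drives the inducible members under stress. Resting naive T cells make little protein and grow when their antigen receptor is engaged, which adds to the load of newly made chains.

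The cells came from C57BL/6 mice whose Gabpa alleles are floxed (Gabpa f/f). Gabpa codes for the DNA-binding subunit of GABP, an Ets family transcription factor. Littermates without Cre are WT, and mice that also carry the CD4-Cre transgene, which is active from the double-positive thymocyte stage on, are KO; both groups carry the floxed alleles. Naive T cells (CD25-, CD62L hi and CD44 lo) of the CD4+ or the CD8+ lineage were sorted from the spleen and lymph nodes of mice of either sex; a part of each sort was taken at 0 h and the rest after 18 h with plate-bound anti-CD3, anti-CD28 and IL-2. Each of the 8 groups had 2 arrays labelled as biological replicates, whether mice were pooled is not given in the sources used here, and the p-values measure the spread between these samples only. A value below is a log2 signal of 1 probe set, so that a log2 difference of 1 is a fold of 2, and no probe set's level is set against another's. Since the samples are bulk RNA put on a common scale, fewer cells of a type and less RNA per cell cannot be told apart. No group was cultured for 18 h without stimulation. A change with stimulation below means 18 h minus 0 h. The parts of receptor stimulation, IL-2, time in culture and recovery from the sort cannot be told apart in it.

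Gabpa itself did not read lower in arrays labelled KO. Its brighter probe set read 8.74 to 9.34 over the 8 WT arrays and 9.09 to 9.79 over the 8 KO arrays, and the dimmer one 6.29 to 7.69 and 7.62 to 9.20. Where these probes lie relative to the floxed exons is not given in the sources used here, so they check nothing about the deletion, and KO means labelled KO throughout. Cd3d read 11.52 or more in every array and Cd8a 10.89 to 12.01 in CD8 arrays, against 4.42 to 7.56 in CD4 arrays, the 7.56 being CD4 WT 0 h replicate 1. That array also had the highest mean level of the 7 measured B cell markers, 5.59 against 3.86 to 5.28 elsewhere. Among CD4 arrays it read highest for Cd79b (6.11), Ms4a1 (6.38), Blk (4.28) and H2-Ab1 (6.58), and not for Cd79a, Pax5 and H2-Aa. Pax5 was dim in every array, at 3.49 or less. The same array also held the highest CD4 values of Cd8b1 (8.52), Nkg7 (7.35) and Fcgr3 (6.53). CD4 KO 0 h replicate 1 had the highest mean level of the 8 myeloid and dendritic cell markers, 4.41 against 3.37 to 4.06 elsewhere. Among CD4 arrays it read highest for S100a8 (5.1), S100a9 (5.18), Lyz2 (5.56), Csf1r (5.87) and H2-Aa (8.44). Itgam, Itgax, Cd14 and Adgre1 were highest in other CD4 arrays. Fcgr3, an NK cell marker, was lower in KO than in WT CD4 cells at 0 h (-1.25 ± 0.26, limma adjusted p = 0.0364). The 3′ minus 5′ difference of the control transcripts, a measure of RNA integrity, was 3.76 in CD8 KO 18 h replicate 2, 1.58 in CD4 WT 0 h replicate 1, 1.11 in CD8 KO 0 h replicate 2 and 0.46 to 0.85 in the other 13 arrays. The CD8 KO 18 h arrays also correlated least with each other, at 0.97 against 0.987 to 0.994 in the other groups. Calls with stimulation, between genotypes and in the responses that were lost without 1 of these 3 arrays are named with the results.

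Upon stimulation, Hsp90aa1 rose and Hspa1b, an inducible HSP70, fell in CD4 and CD8 cells of both genotypes, and most of the CCT ring and HSP110 genes were called higher in all groups but KO CD8, where 4 of 8 and 2 of 4 were. A gene was called where the adjusted p of the limma fit over all genes was under 0.05 and the fold over 1.5. In WT CD4 cells 19 of the 63 members were called higher at 18 h (30.2% of members, against 12.2% of all genes) and 7 lower (against 14% of all genes). In WT CD8 cells 13 were called higher and 1 lower, where 8.2% and 7% of all genes were called. In KO CD4 cells the counts were 14 and 6, beside 11.1% and 13.2% of all genes, and in KO CD8 cells 8 and 2, beside 3.67% and 3.87%. The median difference over all members lay near that over all genes in CD8 cells (0.01 and -0.06 in WT, 0.07 and 0.02 in KO) and a little above it in CD4 cells (0.18 and -0.08 in WT, 0.20 and 0.02 in KO). Of the 19 members called higher in WT CD4 cells, 12 came from the CCT ring, HSP90 and HSP110 classes, which hold 13 of the 63 members. Without CD4 WT 0 h replicate 1, 17 and 3 members were called in WT CD4 cells. In KO CD8 cells 6 and 2 were called without CD8 KO 18 h replicate 2. Leaving out CD8 KO 0 h replicate 2 gave 4 and 1 there, and leaving out replicate 1 of the same group gave 2 and 2. The shares of all genes called in these fits that left out an array are not given here, so their counts are no result about the members. With array medians subtracted, another way to bring arrays to 1 scale, the split in KO CD4 cells was 17 and 5. Over all genes the split was then 1846 higher and 1309 lower in place of 1371 and 1633.

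**Figure D1:**
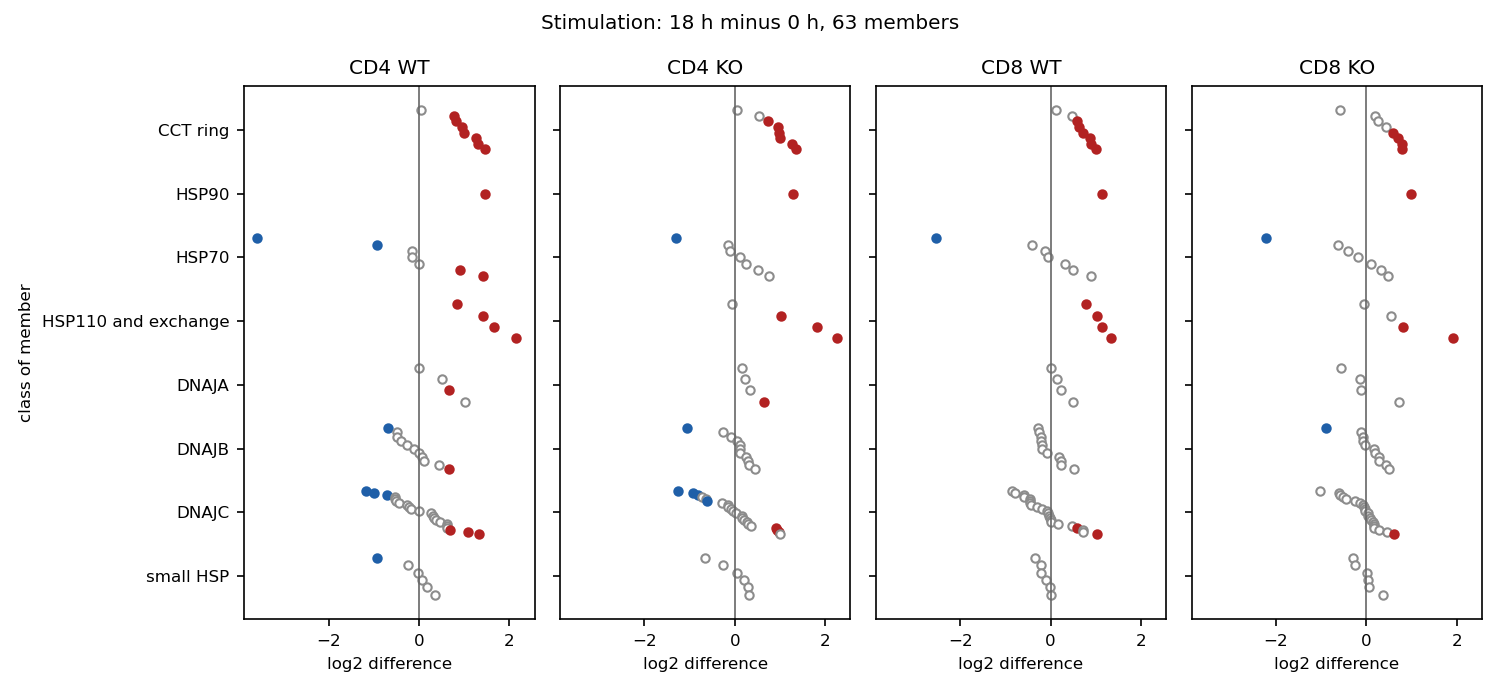
The log2 difference of 18 h minus 0 h (horizontal axis) of each of the 63 members, by class (vertical axis), in a panel for each lineage and genotype. Filled red points were called higher, filled blue points called lower and open grey points not called. The CCT ring and the HSP110 class lie mostly to the right of 0 in all 4 panels, the DNAJB, DNAJC and small HSP classes lie around 0, and the blue point farthest left in each panel is Hspa1b.

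Separation by array showed the same classes. In 13 members all 8 arrays at 18 h read above all 8 arrays at 0 h, across lineages and genotypes, which was 20.6% of members against 5.54% of all genes. These were Cct2, Cct3, Cct4, Cct5, Cct6a, Cct7, Cct8, Hsp90aa1, Hspa8, Hspa4, Hspa4l, Hsph1 and Dnajc2. In 1 member, Dnajc10, all 18 h arrays read below all 0 h arrays, against 5.12% of all genes.

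Of the CCT ring, 7 of 8 subunits were called higher in WT CD4 cells, 6 in WT CD8, 6 in KO CD4 and 4 in KO CD8 cells, and none was called lower. The class medians were 0.97, 0.68, 0.97 and 0.52 in that order. Cct6a showed the largest change in WT CD4 cells. It read 11.03 and 10.96 at 0 h and 12.52 and 12.38 at 18 h in WT CD4 arrays, and 11.39 and 10.95 against 12.58 and 12.48 in KO CD4 arrays. In CD8 cells it read 11.14 and 11.21 against 12.11 and 12.01 in WT, and 11.24 and 11.22 against 12.09 and 11.96 in KO. The times did not overlap in any group, and all 18 h values of Cct6a lay above all 0 h values. Its differences were 1.46 ± 0.16 (SE; adjusted p = 2.39e-05) and 0.89 ± 0.16 (0.00215) in WT CD4 and CD8 cells, and 1.36 ± 0.16 (3.79e-05) and 0.80 ± 0.16 (0.00751) in KO. Without CD8 KO 0 h replicate 2 the last was 0.79 ± 0.20 and missed the threshold (adjusted p = 0.0526).

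Cct8 was close behind, with 10.60 and 10.51 at 0 h against 11.88 and 11.78 at 18 h in WT CD4 arrays, and 10.75 and 10.64 against 11.72 and 11.67 in KO CD4 arrays. The CD8 arrays gave 10.47 and 10.61 against 11.44 and 11.62 in WT, and 10.57 and 10.76 against 11.38 and 11.15 in KO. The smallest gap between the times was thus in CD8 KO cells, where the array of low RNA integrity had the lower 18 h value. The differences of Cct8 were 1.27, 1.0, 1.01 and 0.60 (SE 0.14) in WT CD4, WT CD8, KO CD4 and KO CD8 cells, all called, with adjusted p of 3.65e-05, 0.000652, 0.000209 and 0.0236. Without CD8 KO 18 h replicate 2 the last was 0.72 ± 0.17 (adjusted p = 0.0293), and without CD8 KO 0 h replicate 2 it was 0.70 ± 0.18 and not called (0.0548).

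Cct3 rose by 1.30, 0.87, 1.27 and 0.71 (SE 0.15) and Cct4 by 0.81, 0.59, 0.96 and 0.79 (SE 0.15) in the same order, all called. Without CD8 KO 18 h replicate 2, Cct3 in KO CD8 cells stood at 0.61 ± 0.18 and was no longer called (adjusted p = 0.083), nor was it without CD8 KO 0 h replicate 2 (0.70 ± 0.20, 0.0765). Cct5 and Cct7 were called in 3 of the 4 groups: Cct5 rose by 0.99, 0.73 and 0.99 and Cct7 by 0.95, 0.63 and 0.74, and in KO CD8 cells they stood at 0.43 (adjusted p = 0.107) and 0.25 (0.378). Cct2 rose by 0.78 ± 0.13 in WT CD4 cells (adjusted p = 0.000699), and its other differences of 0.48, 0.54 and 0.20 were not called. The probe sets of Cct2, Cct3 and Cct4 carry the x suffix of the array maker, which marks probes that may also bind other transcripts. Cct6b, the subunit known from testis, was dim, with group means of 4.01 or less, and was called in no group. Tcp1, the remaining subunit of the ring, falls outside the name rule; it rose by 1.11 ± 0.16, 0.94 ± 0.16 and 0.95 ± 0.16 in WT CD4, WT CD8 and KO CD4 cells and stood at 0.49 (adjusted p = 0.0862) in KO CD8 cells.

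Hsp90aa1, the HSP90 isoform that responds to stress, rose in all 4 groups. At 0 h it read 11.22 and 11.04 in WT CD4 arrays and 11.48 and 11.29 in KO CD4 arrays, and at 18 h 12.58 and 12.62, and 12.55 and 12.81. In CD8 cells it read 11.05 and 11.17 against 12.29 and 12.20 in WT, and 11.29 and 11.18 against 12.27 and 12.16 in KO. The times did not overlap in any group. The differences were 1.47 (adjusted p = 1.46e-05), 1.13 (0.000298), 1.30 (3.3e-05) and 0.98 (0.00156) in WT CD4, WT CD8, KO CD4 and KO CD8 cells, each with an SE of 0.15. The dimmer probe sets of Hsp90aa1 disagreed with this one in CD8 KO 18 h replicate 2, where they read 5.93 and 4.94 against 11.70 and 11.41 in replicate 1. They were also low in CD4 WT 0 h replicate 1 (8.58 and 8.22) and CD8 KO 0 h replicate 2 (9.38 and 7.77), the arrays with the next highest 3′ minus 5′ differences; the part of RNA integrity in this was not tested. With the mean of all 3 probe sets the difference in KO CD8 cells turned to -0.27.

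All 4 genes of the HSP110 and exchange factor class were called higher in WT CD4 and WT CD8 cells, 3 in KO CD4 and 2 in KO CD8 cells. The class medians were 1.54, 1.09, 1.42 and 0.67. Hsph1, which codes for HSP105, had the largest rise of any member in WT CD4 cells. It read 8.61 and 8.18 at 0 h and 10.37 and 10.72 at 18 h in WT CD4 arrays, and 9.0 and 8.70 against 10.58 and 10.75 in KO CD4 arrays. In CD8 cells it went from 8.70 and 8.74 to 10.17 and 9.93 in WT, and from 9.05 and 9.30 to 10.05 and 9.92 in KO. The 0 h values were higher in KO than in WT in both lineages without overlap, while the 18 h values lay close together. Hsph1 rose by 2.15 ± 0.19 (adjusted p = 6.17e-06), 1.33 ± 0.19 (0.000607), 1.82 ± 0.19 (1.85e-05) and 0.81 ± 0.19 (0.0213) in WT CD4, WT CD8, KO CD4 and KO CD8 cells. Without CD8 KO 18 h replicate 2 the last was 0.88 ± 0.23 and missed the threshold (adjusted p = 0.0532). The KO minus WT difference at 0 h, 0.45 ± 0.19 in each lineage, was not called (adjusted p = 0.41 in CD4 and 0.407 in CD8).

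Hspa4l, another HSP110 gene, rose in each group and read highest in stimulated KO cells of each lineage. Its CD4 arrays read 6.19 and 6.60 at 0 h in WT and 6.60 and 6.32 in KO, then 7.96 and 8.17 in WT and 8.80 and 8.67 in KO at 18 h. The CD8 arrays read 5.86 and 6.05 in WT and 5.64 and 6.22 in KO, then 6.95 and 7.26 in WT and 7.75 and 7.94 in KO. The genotypes overlapped at 0 h and were apart at 18 h. From 0 h to 18 h Hspa4l rose by 1.67 ± 0.22 (adjusted p = 9.31e-05), 1.15 ± 0.22 (0.00331), 2.27 ± 0.22 (9.28e-06) and 1.91 ± 0.22 (0.000226) in WT CD4, WT CD8, KO CD4 and KO CD8 cells. KO minus WT at 18 h was 0.67 ± 0.22 in CD4 and 0.74 ± 0.22 in CD8 cells and was not called (adjusted p = 0.096 and 0.0967); with the replicate number as a block within each lineage, so that arrays of 1 number are compared with each other, Hspa4l was called higher in both (0.67 ± 0.18, adjusted p = 0.0342, and 0.74 ± 0.18, 0.0325). The difference of responses, 0.60 in CD4 and 0.77 in CD8 cells, was not called (adjusted p = 0.507 and 0.475).

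Hspa4 went from 10.09 and 10.13 to 11.54 and 11.50 in WT CD4 arrays and from 10.60 and 10.63 to 11.57 and 11.69 in KO CD4 arrays. Its CD8 arrays went from 10.16 and 10.01 to 11.10 and 11.14 in WT and from 10.58 and 10.41 to 11.12 and 10.95 in KO. As with Hsph1, KO arrays started higher at 0 h and ended near WT. Hspa4 rose by 1.41, 1.03 and 1.02 (SE 0.13) in WT CD4, WT CD8 and KO CD4 cells, and its 0.54 in KO CD8 cells fell short of the 1.5 fold (adjusted p = 0.0279); without CD8 KO 18 h replicate 2 it was called there, at 0.62 ± 0.16 (0.0426). At 0 h KO minus WT was 0.50 ± 0.13 in CD4 (adjusted p = 0.122) and 0.41 ± 0.13 in CD8 cells (0.211).

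Hspbp1, an exchange factor that binds the HSP70 nucleotide-binding domain, was called higher after stimulation in WT cells and did not pass in KO cells. The WT arrays went from 7.35 and 6.96 to 7.93 and 8.08 in CD4 cells and from 7.53 and 7.39 to 8.07 and 8.40 in CD8 cells. The KO arrays went from 7.22 and 7.47 to 7.22 and 7.32 in CD4 cells and from 7.52 and 7.62 to 7.11 and 7.94 in CD8 cells. At 18 h every KO array lay below the WT arrays of its lineage, and in CD8 cells replicate 2 of KO lay much nearer to WT than replicate 1. The changes were 0.85 ± 0.24 (adjusted p = 0.0175) and 0.78 ± 0.24 (0.0442) in WT CD4 and CD8 cells, and -0.07 and -0.05 in KO. The call in WT CD8 cells was lost without CD8 KO 0 h replicate 2, an array of another group (0.78 ± 0.25, adjusted p = 0.0589). The difference of responses was -0.92 ± 0.34 in CD4 (adjusted p = 0.296) and -0.82 ± 0.34 in CD8 cells (0.495) and was not called. KO minus WT at 18 h was -0.73 ± 0.24 (adjusted p = 0.101) and -0.71 ± 0.24 (0.142), not called either; without CD8 KO 18 h replicate 2 it was called lower in both, at -0.73 ± 0.17 (0.019) in CD4 and -1.13 ± 0.21 (0.0226) in CD8 cells.

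**Figure D2:**
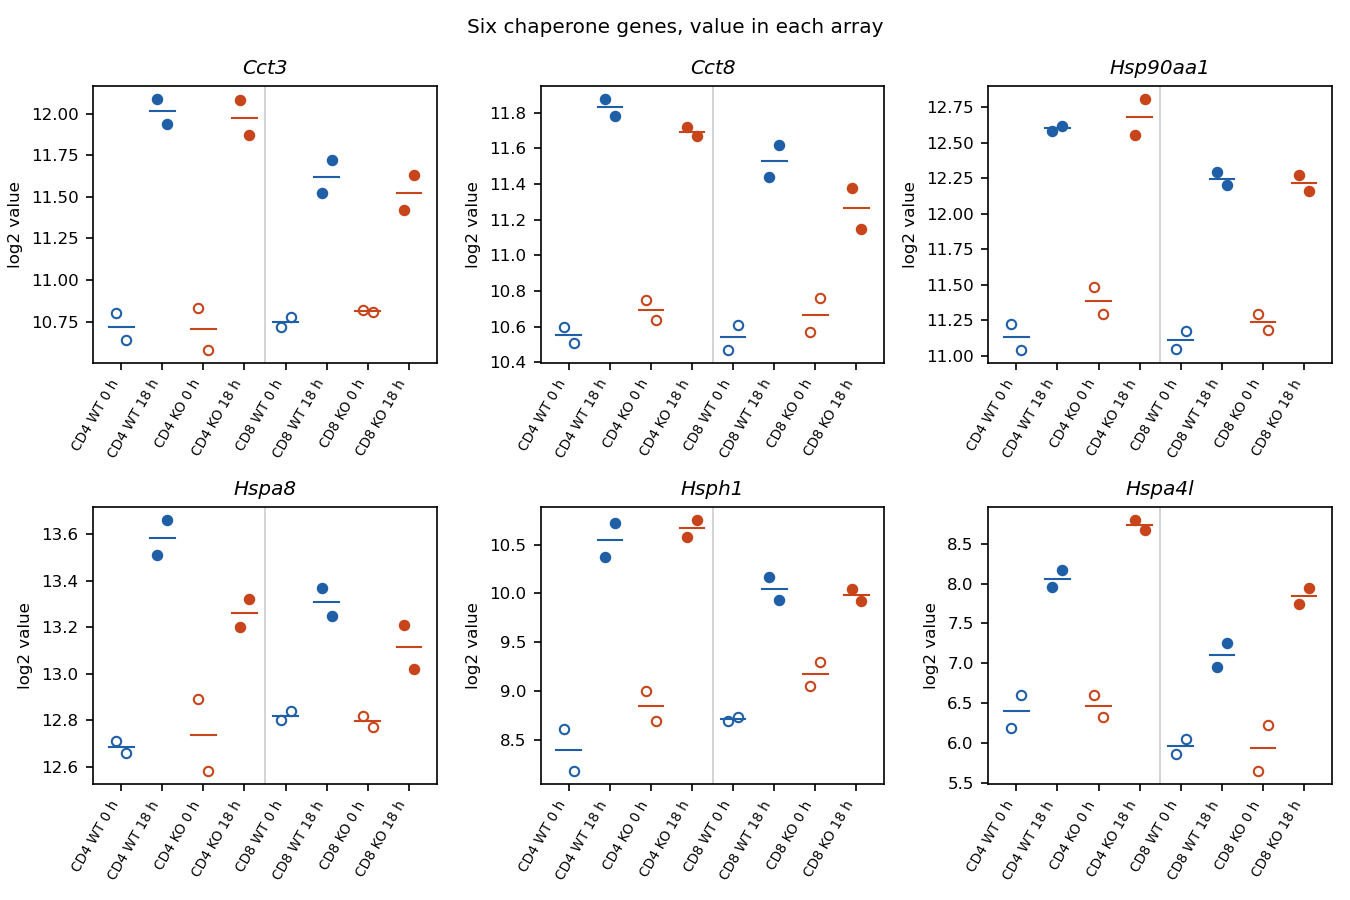
The log2 value (vertical axis, with its own range in each panel) of 6 chaperone genes in each of the 16 arrays, by group (horizontal axis). Open circles are 0 h and filled circles 18 h, blue WT and red KO, and a line marks the mean of the 2 arrays. In all 6 panels the filled circles lie above the open ones; for Hspa4l the filled red circles lie above the filled blue ones of the same lineage, and for Hsph1 the open red circles lie above the open blue ones.

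The HSP70 family did not move as 1 block. In WT CD4 cells 2 of its 7 members were called higher and 2 lower, and in the other groups 1 was called lower and none higher. Hspa8, the constitutive HSC70, was high in all arrays. It read 12.71 and 12.66 at 0 h and 13.51 and 13.66 at 18 h in WT CD4 arrays, and 12.89 and 12.58 against 13.20 and 13.32 in KO CD4 arrays. The CD8 arrays read 12.80 and 12.84 against 13.37 and 13.25 in WT, and 12.82 and 12.77 against 13.21 and 13.02 in KO. Every 18 h value lay above every 0 h value, but the step was small outside WT CD4 cells. The probe set of Hspa8 also carries the x suffix, so these values may include other transcripts. Hspa8 rose by 0.90 ± 0.15 in WT CD4 cells (adjusted p = 0.000525), and its 0.49 in WT CD8 (0.0385), 0.52 in KO CD4 (0.0181) and 0.32 in KO CD8 cells (0.248) were not called. Hspa14, an HSP70 that works at the ribosome with Dnajc2, rose by 1.42 ± 0.35 in WT CD4 cells (adjusted p = 0.00846), a call lost without CD4 WT 0 h replicate 1 (1.16 ± 0.43, 0.0781). Its 0.89 in WT CD8 and 0.76 in KO CD4 cells were not called (adjusted p = 0.117 and 0.155) but were without CD8 KO 18 h replicate 2 (0.0238 and 0.0365), and in KO CD8 cells it stood at -0.18. Hspa1l, Hspa2 and Hspa12b were dim, with highest group means of 2.69, 4.55 and 3.49, and were called in no group.

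Hspa1b and Hspa1a code for the stress-inducible HSP70 and are near-identical neighbours, so probes for either may read transcripts of both, and their values are uncertain as to which gene they count. The heat shock element, where HSF1 binds, is built from inverted GAA units, and GABP binds the Ets motif with CGGAAG at its core. The 250 bases before the transcription start (RefSeq, GRCm38.p6, gene strand) of 6 genes, chosen for their changes with stimulation or between genotypes, are shown for their motif matches, in capitals, with GAANNTTC or TTCNNGAA as a pair of heat shock units, and CGGAAG as the GABP core, on either strand. Read on the opposite strand, that core is CTTCCG. Hspa1b lies at chr17:34959239-34959488 and Hspa1a at chr17:34972157-34972406, both on the minus strand; they share 247 of 250 letters, and each holds a pair of heat shock units 104 to 97 bases before the start.
Hspa1b: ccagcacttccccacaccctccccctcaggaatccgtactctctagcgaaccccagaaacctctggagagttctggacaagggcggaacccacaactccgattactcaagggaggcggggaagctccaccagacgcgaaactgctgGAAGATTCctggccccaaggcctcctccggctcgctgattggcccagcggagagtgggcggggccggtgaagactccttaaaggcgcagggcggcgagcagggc
Hspa1a: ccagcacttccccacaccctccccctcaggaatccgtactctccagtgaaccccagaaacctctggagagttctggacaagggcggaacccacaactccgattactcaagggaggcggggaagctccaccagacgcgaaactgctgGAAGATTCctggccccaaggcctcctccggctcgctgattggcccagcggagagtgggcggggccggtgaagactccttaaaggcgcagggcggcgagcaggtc
Hsph1, at chr5:149636337-149636586 on the minus strand, holds both motifs, the heat shock pair 33 to 26 and the GABP core 7 to 2 bases before the start.
Hsph1: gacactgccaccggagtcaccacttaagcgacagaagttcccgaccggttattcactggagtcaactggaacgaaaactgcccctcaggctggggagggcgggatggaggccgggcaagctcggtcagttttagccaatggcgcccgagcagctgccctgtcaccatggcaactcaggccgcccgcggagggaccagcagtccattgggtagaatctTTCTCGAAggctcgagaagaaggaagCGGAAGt
Cct8, at chr16:87495870-87496119, and Hspbp1, at chr7:4684982-4685231, both on the minus strand, hold the GABP core alone, 36 to 31 and 18 to 13 bases before the start.
Cct8: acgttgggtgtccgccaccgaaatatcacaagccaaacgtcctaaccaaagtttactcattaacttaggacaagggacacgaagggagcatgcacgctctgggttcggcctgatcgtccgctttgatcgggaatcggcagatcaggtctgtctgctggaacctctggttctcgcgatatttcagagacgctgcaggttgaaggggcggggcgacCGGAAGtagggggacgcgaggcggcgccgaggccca
Hspbp1: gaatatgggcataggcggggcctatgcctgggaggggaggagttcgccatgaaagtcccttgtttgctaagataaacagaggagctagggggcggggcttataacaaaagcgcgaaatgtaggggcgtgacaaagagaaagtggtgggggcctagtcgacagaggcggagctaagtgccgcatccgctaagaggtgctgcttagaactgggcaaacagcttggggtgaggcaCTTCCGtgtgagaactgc
Dnajb2, at chr1:75236173-75236422 on the plus strand, holds neither motif in this window.
Dnajb2: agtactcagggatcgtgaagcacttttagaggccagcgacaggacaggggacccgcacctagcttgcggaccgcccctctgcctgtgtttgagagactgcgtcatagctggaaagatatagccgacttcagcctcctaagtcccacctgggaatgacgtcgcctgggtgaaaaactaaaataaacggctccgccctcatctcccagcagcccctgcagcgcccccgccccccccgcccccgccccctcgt

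Hspa1b gave the largest change of all members, and it went down. In WT CD4 arrays it read 8.08 and 8.54 at 0 h and 4.65 and 4.81 at 18 h. In KO CD4 arrays it read 7.73 and 8.53 at 0 h and 6.32 and 7.32 at 18 h. The genotypes overlapped at 0 h, and at 18 h both KO arrays lay more than 1 log2 unit above both WT arrays. In CD8 arrays it went from 7.21 and 7.05 to 4.52 and 4.65 in WT, and from 7.80 and 7.36 to 5.12 and 5.61 in KO. Here KO lay above WT at both times, by less than in CD4 cells at 18 h. The change of Hspa1b with stimulation was -3.58 ± 0.33 (adjusted p = 8.18e-06), -2.54 ± 0.33 (0.000305), -1.31 ± 0.33 (0.0101) and -2.22 ± 0.33 (0.00156) in WT CD4, WT CD8, KO CD4 and KO CD8 cells. The other probe sets of Hspa1b, 2 in number, gave -3.69 and -3.34 in WT CD4 cells. All 4 WT values at 18 h lie under 5.37, the median of all values, and no detection call is used here, so the falls in WT and the differences from KO at 18 h may be understated.

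KO minus WT for Hspa1b at 18 h was 2.09 ± 0.33 in CD4 cells (adjusted p = 0.00222) and 0.78 ± 0.33 in CD8 cells (0.257). The call in CD4 cells held without each of the 16 arrays in turn and under each of the 11 other settings tried, and the other probe sets gave 1.99 and 1.68. The response in KO minus that in WT was 2.27 ± 0.47 in CD4 cells (adjusted p = 0.0355) and 0.32 ± 0.47 in CD8 cells (0.911). The call on this difference of responses in CD4 cells held in 8 of the 16 fits that left out an array; without CD4 WT 0 h replicate 1 it was lost (2.50 ± 0.52, adjusted p = 0.0742). It was also lost in the fit of CD4 arrays alone and under limma's treat, which tests against the minimum fold. With the replicate block it held (limma adjusted p = 0.00536). The KO effect at 18 h in CD8 minus that in CD4 cells, a contrast added after seeing the data, was -1.32 ± 0.47 and was not called (adjusted p = 0.557).

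Hspa1a was dim throughout. Its CD4 arrays read 4.02 and 4.45 at 0 h and 3.10 and 3.52 at 18 h in WT, and 4.09 and 4.01 against 3.85 and 4.47 in KO. Its CD8 arrays read 3.41 and 3.53 against 2.85 and 3.27 in WT, and 4.32 and 3.81 against 3.41 and 3.47 in KO. At 18 h the KO values lay above the WT values in each lineage. The change with stimulation was -0.93 ± 0.25 in WT CD4 cells (adjusted p = 0.0132), and -0.41, 0.11 and -0.63 in WT CD8, KO CD4 and KO CD8 cells, not called. KO minus WT at 18 h in CD4 cells, 0.85 ± 0.25, was not called (adjusted p = 0.0647) and was called with the replicate block (0.85 ± 0.21, 0.0262).

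J-domain genes were called at shares near or below those of all genes. Of 4 DNAJA, 11 DNAJB and 22 DNAJC members, 37 in all, 5 were called higher and 4 lower in WT CD4 cells (24.3%, against 26.2% of all genes) and 2 and none in WT CD8 cells (5.41%, against 15.2%). In KO the counts were 4 and 5 in CD4 (24.3%, against 24.2%) and 1 and 1 in CD8 cells (5.41%, against 7.54%). Dnajc2, the ribosome-bound partner of Hspa14, was the 1 J-domain gene called higher in each group. Its CD4 arrays read 9.47 and 9.31 at 0 h and 10.80 and 10.66 at 18 h in WT, and 9.77 and 9.66 against 10.67 and 10.58 in KO. Its CD8 arrays read 9.40 and 9.31 against 10.27 and 10.48 in WT, and 9.70 and 9.81 against 10.29 and 10.44 in KO. All 18 h values of Dnajc2 lay above all 0 h values, and at 0 h KO lay above WT. The differences were 1.34 ± 0.14 (adjusted p = 2.27e-05), 1.02 ± 0.14 (0.000498), 0.91 ± 0.14 (0.000401) and 0.61 ± 0.14 (0.0203) in WT CD4, WT CD8, KO CD4 and KO CD8 cells. The last was lost without CD8 KO 18 h replicate 2 (0.53 ± 0.17, adjusted p = 0.104). Leaving out CD8 KO 0 h replicate 2 instead gave 0.66 ± 0.18 (0.0678), also not called.

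Dnajc21, which takes part in making ribosomes, rose by 0.69 and 0.59 in WT CD4 and CD8 cells (SE 0.16) and stood at 0.37 and 0.15 in KO (adjusted p = 0.111 and 0.682). Dnajc11, a mitochondrial member, rose by 1.08 ± 0.22 in WT CD4 and 0.99 ± 0.22 in KO CD4 cells. In CD8 cells Dnajc11 stood at 0.47 in WT and -0.04 in KO. In WT CD4 cells Dnaja1, a main J-domain partner of HSC70, rose by 0.66 ± 0.16, and Dnajb11, a J-domain protein of the ER, by 0.66 ± 0.16; without CD4 WT 0 h replicate 1 neither was called (0.53 and 0.51, adjusted p = 0.0646 and 0.0899). Dnaja3 (0.65 ± 0.14), also mitochondrial, and Dnajc27 (0.93 ± 0.17), which carries a small GTPase domain, rose in KO CD4 cells. Dnajb1, the HSP40 partner of inducible HSP70 and itself a heat shock gene, read 9.43 to 9.58 over the CD4 arrays and 9.30 to 9.42 over the CD8 arrays. Its changes with stimulation were 0.01, -0.07, 0.05 and -0.03 (SE 0.13).

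Dnajc14, a J-domain protein of the ER membrane, fell by 1.18 ± 0.26 on the log2 scale in WT CD4 cells and by 1.25 ± 0.26 in KO CD4 cells, and stood at -0.79 in WT CD8 (adjusted p = 0.063) and 0.18 in KO CD8 cells (0.79). Dnajc4 fell by 1.0 ± 0.16 in WT CD4 cells and by 0.61 ± 0.16 in KO CD4 cells. Dnajc10, a disulfide reductase of the ER, fell by 0.71 ± 0.22 in WT CD4 and by 0.92 ± 0.22 in KO CD4 cells. In WT CD8 cells Dnajc10 stood at -0.59 and was called with the replicate block (-0.59 ± 0.12, adjusted p = 0.00507). Dnajb13, known from cilia and sperm tails, fell by 0.69 ± 0.24 in WT CD4 cells, by 1.05 ± 0.24 in KO CD4 and by 0.89 ± 0.24 in KO CD8 cells. Dnajc28 fell by 0.82 ± 0.21 in KO CD4 cells. Of the 6 small HSP genes, 2 had a highest group mean at or above 5.37 and the rest were dim. The 1 called was Hspb11, an intraflagellar transport protein by its known role, which fell by 0.93 ± 0.31 in WT CD4 cells (adjusted p = 0.0378). Of these 5 falls in WT CD4 cells, that of Dnajc4 was called without CD4 WT 0 h replicate 1 (-0.86 ± 0.19, adjusted p = 0.00692). Those of Dnajc14 (-0.90, 0.0551), Dnajc10 (-0.55, 0.178), Dnajb13 (-0.42, 0.336) and Hspb11 (-0.66, 0.249) were not. In KO CD8 cells Dnajb13 was not called without CD8 KO 0 h replicate 2 (-0.63 ± 0.27, adjusted p = 0.253). Hspb1, the best known small heat shock protein, stood at 0.18, -0.09, 0.31 and 0.01 in WT CD4, WT CD8, KO CD4 and KO CD8 cells.

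Known HSF1 targets did not move together. Of the 9 measured targets among members, 5 were called higher and 2 lower in WT CD4 cells, and 3 and 1 in each other group. Hsp90aa1, Hsph1 and Hspa4l rose in all 4 groups, Hspa1b fell in all 4, and Dnajb1 was called in none. The 5 measured T cell markers, by comparison, all read lower at 18 h in WT CD4 cells and were called. None of the 7 B cell, 8 myeloid and 4 NK cell markers was called except 1 NK cell marker, called lower. Uncalled markers were not all level. The WT CD4 means of H2-Aa (7.35 to 5.46), Cd79b (5.22 to 3.86), H2-Ab1 (5.83 to 4.57) and Ms4a1 (5.49 to 4.26) fell, while Cd79a (3.98 to 3.92) and Pax5 (3.18 to 3.24) hardly moved. These 0 h means include CD4 WT 0 h replicate 1.

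Partners of these chaperones were called higher at shares above those of all genes, though many did not pass the test. Of 38 measured cochaperones, regulators and assembly factors (Hsf1, Ptges3, Ppid and Pfdn4 were not matched), 18 were called higher and 1 lower in WT CD4 cells, 13 and none in WT CD8, and in KO 14 and 3 (CD4) and 6 and 1 (CD8). The upward shares were 47.4%, 34.2%, 36.8% and 15.8%, against 12.2%, 8.2%, 11.1% and 3.67% of all genes. Their median differences were 0.60, 0.46, 0.32 and 0.19, against -0.08, -0.06, 0.02 and 0.02 over all genes. Bag2, which regulates HSP70, rose by 2.37 ± 0.34 and 1.95 ± 0.34 in WT CD4 and CD8 cells. Ruvbl1, an ATPase that works with HSP90 in assembling large complexes, rose by 2.33 ± 0.19 and 1.52 ± 0.19. St13, which stabilises the ADP state of HSP70, rose by 2.03 ± 0.17 and 1.40 ± 0.17, and Stip1, the adaptor that joins HSP70 to HSP90, by 1.81 ± 0.23 and 1.40 ± 0.23. In KO CD8 cells Bag2 stood at 0.52 (adjusted p = 0.446) and Stip1 at 0.17 (0.768). Of the 6 ER and mitochondrial chaperones that the name rule leaves out, 5, 4, 4 and 3 were called higher in WT CD4, WT CD8, KO CD4 and KO CD8 cells; Hspd1, the mitochondrial HSP60, rose by 3.0 ± 0.28, 1.97 ± 0.28, 2.55 ± 0.28 and 1.24 ± 0.28.

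Few of the chaperones were called between KO and WT cells. At 0 h no member was called in CD4 cells, where 0.533% of all genes were called higher and 0.742% lower, or in CD8 cells, where 1.13% and 0.5% were; 10 and 11 members had an unadjusted limma p under 0.05. At 18 h 2 members were called higher in CD4 KO cells, Hspa1b and Dnajb2, and none lower, beside 2.72% and 4.14% of all genes. In CD8 KO cells 1 was called higher, Dnajb2, and none lower, beside 1.59% and 1.16% of all genes. In both directions together, 3.17% and 1.59% of members were called, against 6.86% and 2.75% of all genes. The shares of members called higher were near those of all genes. With array medians subtracted, CD4 cells at 18 h gave 7 and none, CD8 cells at 0 h none and 1, and CD8 cells at 18 h 1 and none. Over all genes that scaling turned 337 higher and 513 lower into 568 and 440 for the first of these, 140 and 62 into 101 and 98 for the next, and 197 and 144 into 171 and 191 for the last.

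With the replicate number as a block within each lineage, 1 member was called at 0 h in CD4 cells and 2 in CD8 cells, and at 18 h 6 were called in either lineage. Over all genes 2.27%, 3.5%, 9.81% and 6.42% were called in that fit. With 1 array left in CD8 KO 18 h, the count of members called in CD8 cells at 18 h depended on which array was kept. The larger count came with replicate 2 alone, the array with a 3′ minus 5′ difference of 3.76. The share of all genes called in these fits is not given here, so neither count is a result about the members.

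**Figure D3:**
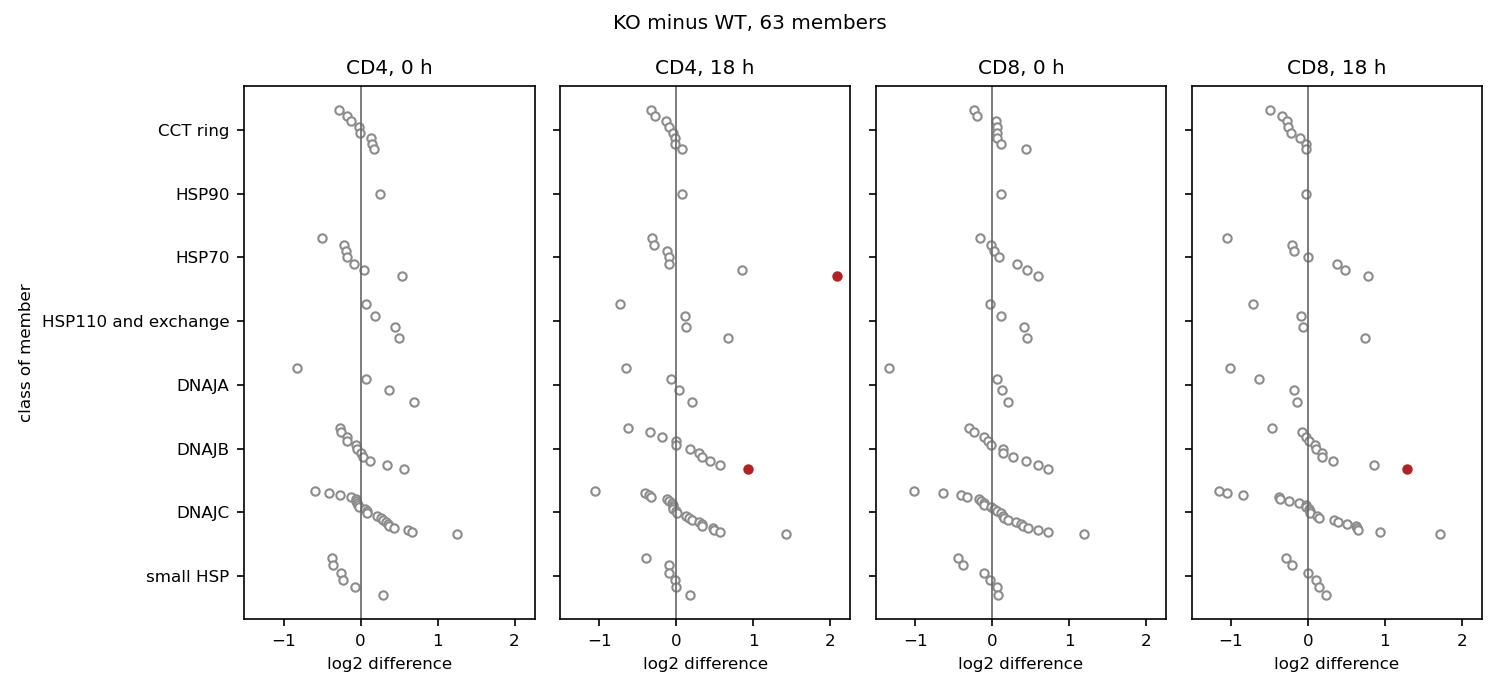
The log2 difference of KO minus WT (horizontal axis) of each of the 63 members, by class (vertical axis), in a panel for each lineage and time. Filled red points were called higher, open grey points were not called, and no member was called lower. The CCT ring lies within 0.5 of 0 in each panel; the filled points are Hspa1b (2.09) and Dnajb2 (0.93) in CD4 cells and Dnajb2 (1.29) in CD8 cells at 18 h, and the open DNAJC point farthest right in each panel is Dnajc12.

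None of the 8 CCT ring subunits was called between genotypes. At 18 h in CD8 cells the lowest was Cct5, at -0.49 ± 0.15 (adjusted p = 0.11), and in CD4 cells Cct7, at -0.33 ± 0.14 (0.236). At the same time Hsp90aa1 stood at 0.08 (CD4) and -0.03 (CD8), with an SE of 0.15, and Hspa8 at -0.32 (adjusted p = 0.275) and -0.20 (0.582).

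Dnajb2, a J-domain protein with ubiquitin-interacting motifs that is known for its abundance in neurons, was higher in KO cells at 18 h in both lineages. In CD4 arrays it read 6.83 and 6.59 in WT and 6.83 and 6.83 in KO at 0 h, then 6.18 and 6.25 in WT and 7.08 and 7.22 in KO at 18 h. In CD8 arrays it read 5.95 and 5.96 in WT and 6.51 and 6.58 in KO at 0 h, then 6.09 and 5.29 in WT and 6.99 and 6.98 in KO at 18 h. The genotypes did not overlap at 18 h in either lineage, nor at 0 h in CD8 cells. KO minus WT at 18 h was 0.93 ± 0.21 in CD4 (adjusted p = 0.0167) and 1.29 ± 0.21 in CD8 cells (0.00712). Without CD8 KO 18 h replicate 2 the latter was 1.29 ± 0.26 (0.0294). The CD4 call held in 12 of the 16 fits that left out an array and was lost under limma's treat. The CD8 call held in all 16 and was lost under treat, in the fit of CD8 arrays alone and with array weights. The changes with stimulation, -0.49, -0.27, 0.32 and 0.44 in WT CD4, WT CD8, KO CD4 and KO CD8 cells, were not called, nor was the difference of responses in CD4 cells, 0.81 ± 0.29 (adjusted p = 0.288).

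Dnajc12, a J-domain protein known to assist the aromatic amino acid hydroxylases, was the 1 member whose 8 KO arrays all read above its 8 WT arrays, which held for 0.42% of all genes; none had all KO arrays below, against 0.646%. In CD4 arrays it read 6.48 and 5.49 in WT and 7.60 and 6.88 in KO at 0 h, and 6.30 and 5.35 in WT and 7.49 and 7.02 in KO at 18 h. In CD8 arrays it read 5.62 and 6.05 in WT and 6.69 and 7.37 in KO at 0 h, and 5.29 and 6.25 in WT and 7.39 and 7.59 in KO at 18 h. In CD4 cells replicate 1 was above replicate 2 in every group, and in CD8 cells replicate 2 above replicate 1. KO minus WT was 1.25 and 1.2 at 0 h in CD4 and then CD8 cells, and 1.43 and 1.72 at 18 h (SE 0.43), and was not called (adjusted p = 0.264, 0.282, 0.0697 and 0.0561). With the replicate block the SE was 0.19 and Dnajc12 was called higher in all 4 comparisons (adjusted p = 0.00691, 0.0074, 0.000744 and 0.000769). Without CD4 WT 0 h replicate 1 it was called in CD8 cells at 18 h (1.72 ± 0.40, adjusted p = 0.0474). Its level did not follow stimulation, with changes between -0.17 and 0.46.

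The replicate block also called Dnajc24, which takes part in modifying elongation factor 2 to its diphthamide form, lower in KO at 18 h, by -1.05 ± 0.20 in CD4 (adjusted p = 0.00632) and -1.05 ± 0.20 in CD8 cells (0.013). Dnajc24 read 7.73 and 7.29 in WT and 6.61 and 6.31 in KO CD4 arrays at 18 h. In CD8 arrays at 18 h it read 6.84 and 7.54 in WT and 5.49 and 6.80 in KO, where 6.80 lies just below 6.84. Without the block the SE was 0.41 and the adjusted p 0.184 and 0.212. Dnaja4 was called lower in CD8 KO cells at 0 h with the block (-1.34 ± 0.28, adjusted p = 0.0252) and stood just past the threshold without it (-1.34 ± 0.31, 0.0514). It was called without CD4 WT 0 h replicate 1 (adjusted p = 0.0341), and also when CD8 KO 18 h replicate 2 was left out (0.0452). Dnajb4 and Dnajc4 were called higher in CD8 KO cells at 18 h with the block, at 0.86 (adjusted p = 0.0174) and 0.63 (0.0316), against 0.136 and 0.06 without it. Dnajc5, the cysteine string protein, was 0.57 ± 0.13 higher in CD4 KO cells at 18 h (adjusted p = 0.0185), under the fold of 1.5, and was not counted.

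**Figure D4:**
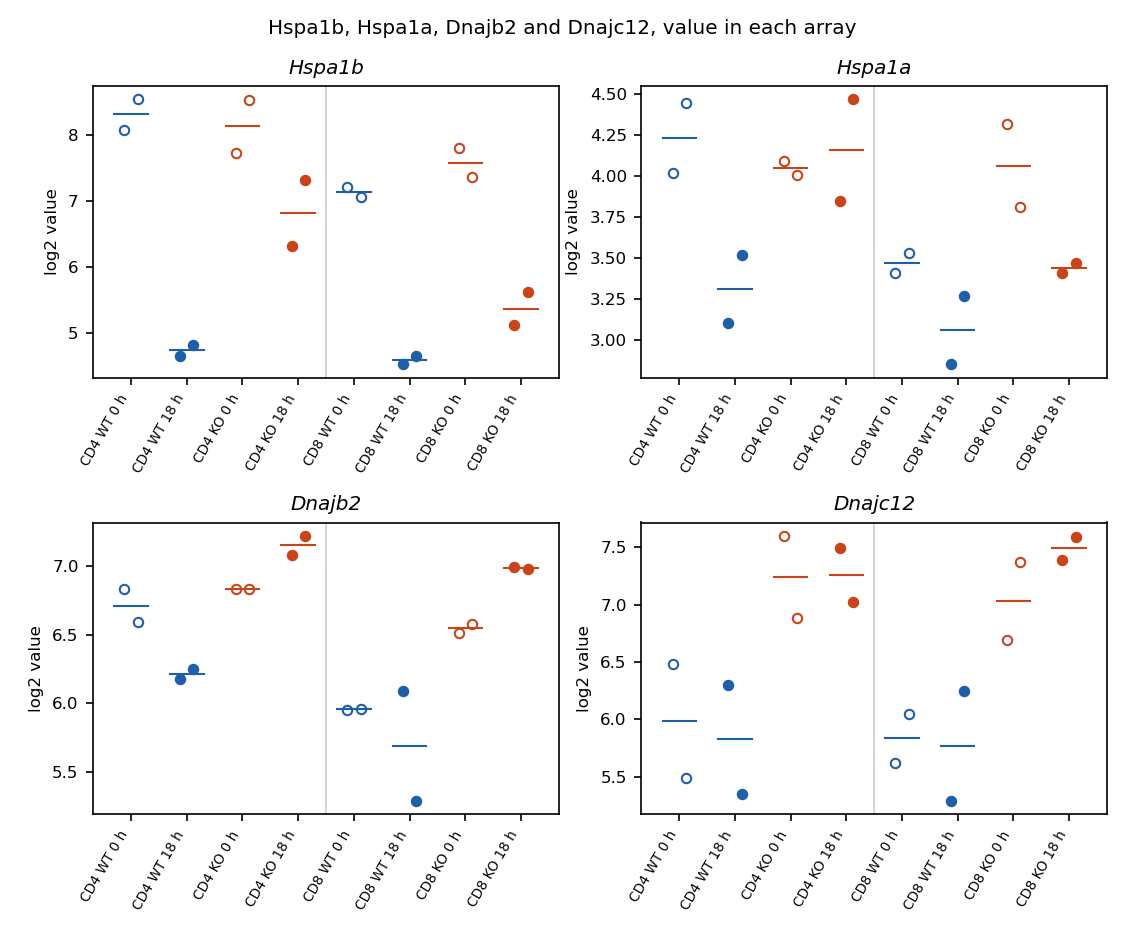
The log2 value (vertical axis, with its own range in each panel) of Hspa1b, Hspa1a, Dnajb2 and Dnajc12 in each of the 16 arrays, by group (horizontal axis). Open circles are 0 h and filled circles 18 h, blue WT and red KO, and a line marks the mean of the 2 arrays. Hspa1b falls with stimulation in every group and least in CD4 KO cells (to 6.32 and 7.32), Dnajb2 is apart between genotypes at 18 h, and every red Dnajc12 point lies above every blue one.

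Among the 38 partners 3 were called between genotypes in CD4 cells at 18 h, all lower in KO. Bag1, an HSP70 exchange factor, stood at -0.96 ± 0.24 (adjusted p = 0.0296), Ahsa2, related to an activator of the HSP90 ATPase, at -0.64 ± 0.16 (0.0269), and Stub1, the ubiquitin ligase CHIP, at -0.63 ± 0.16 (0.0294). In CD8 cells at 0 h Bag6, which guards tail-anchored and misplaced membrane proteins, was 0.93 ± 0.18 higher in KO (adjusted p = 0.0247).

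For the response in KO minus the response in WT, 1 member was called higher in CD4 cells, Hspa1b, and none lower, beside 0.524% and 0.888% of all genes. In CD8 cells none was called, beside 0.0403% and 0.226% of all genes, and 8 members had an unadjusted limma p under 0.05. The medians over members were -0.06 and -0.09, and over partners -0.33 and -0.32, against 0.07 and 0.05 over all genes.

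The lineages differed in a few members. In WT at 0 h Dnajc15 was called higher and Dnajc4 lower in CD8 than in CD4 cells, beside 0.646% and 0.637% of all genes. In KO at 0 h Dnajc15 and Dnajc27 (0.79 ± 0.17, adjusted p = 0.0303) were called higher and none lower, beside 1.59% and 0.718%, and neither was without CD8 KO 0 h replicate 2 (adjusted p = 0.257 and 0.0671), and in WT at 18 h Hspa4l alone was called, lower, at -0.96 ± 0.22 (0.0303), beside 2.32% and 0.96%. With array medians subtracted the calls over all genes turned from 197 higher and 89 lower to 154 and 128 in KO at 0 h, where the members' split was then 1 and 1, and from 288 and 119 to 227 and 179 in WT at 18 h.

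Dnajc15, a J-domain protein of the inner mitochondrial membrane, was the 1 member with all 8 CD8 arrays above all 8 CD4 arrays, which held for 0.476% of all genes. Its CD4 arrays read 10.07 and 9.15 in WT and 10.44 and 10.12 in KO at 0 h, and 10.28 and 9.86 in WT and 10.63 and 10.48 in KO at 18 h. Its CD8 arrays read 11.02 and 11.24 in WT and 11.36 and 11.65 in KO at 0 h, and 10.90 and 10.99 in WT and 11.38 and 11.81 in KO at 18 h. The lowest CD4 value was that of CD4 WT 0 h replicate 2. CD8 minus CD4 was 1.52 ± 0.27 (adjusted p = 0.0137) and 1.23 ± 0.27 (0.0348) in WT and KO at 0 h, and 0.88 (0.129) and 1.04 (0.0221) at 18 h. Dnajb1 was the 1 member with all CD8 arrays below all CD4 arrays, against 0.178% of all genes, by a small step: the nearest values were 9.42 and 9.43, and its CD8 minus CD4 differences of -0.10 to -0.19 were not called. Dnajc4 stood at -0.88 ± 0.16 in WT at 0 h (adjusted p = 0.0151), and at -0.74 ± 0.19 without CD4 WT 0 h replicate 1 (0.186).

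In stimulated KO cells 2 members were called higher and 8 lower in CD8 than in CD4 cells, beside 9.12% and 4.54% of all genes. Hspa1b (-1.46 ± 0.33, adjusted p = 0.0103), Hspa14 (-1.22 ± 0.35, 0.0362), Dnajc15 (1.04 ± 0.27, 0.0221) and Dnajc14 (1.01 ± 0.26, 0.0225) differed most. This count rests on CD8 KO 18 h replicate 2: without it none was called higher and 3 lower, and Hspa14 (0.297), Dnajc15 (0.149) and Dnajc14 (0.13) were not among them. The share of all genes called in the fit without that array is not given here, so its count is no result about the members. With array medians subtracted the split was none and 17, and over all genes 739 higher and 1341 lower in place of 1130 and 563. The WT response in CD8 minus that in CD4 cells, the KO effect in CD8 minus that in CD4 cells at 0 h and the same at 18 h, all added after seeing the data, called no member, beside 0.371%, 0% and 0.0403% of all genes; 5, 1 and 2 members had an unadjusted limma p under 0.05.

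Windows of 250 bases before the start were held for 52 of the 63 members; Hsp90aa1, Hspa8, Hspb2, Cct4, Dnajc2, Dnajc5, Dnajc5b, Dnajc11, Dnajc12, Dnajc18 and Dnajc30 had none. A match in the window of any annotated start of a gene was counted. The GABP core occurred in 20 of the 52 (38.5%), against 19.2% of 17492 coding genes, and the pair of heat shock units in 13 (25%), against 13.6%. A run of 3 alternating heat shock units, each 2 bases from the next, occurred in 1, Dnajb6 (1.92%), against 0.452%. The coding genes were not limited to those tested or expressed here, so these shares do not tell members from other expressed genes. By class the GABP core was in 3 of 7 CCT ring genes, 3 of 4 HSP110 and exchange factor genes, 7 of 15 DNAJC and none of 5 small HSP genes. In 6 members both motifs occurred, and in 2 of these, Dnaja4 and Dnajb6, matches of the motifs overlapped. None of the 20 members with a GABP core was called in the 4 KO minus WT comparisons over all arrays and without the block. With the replicate block 4 of the 20 were called in at least 1 comparison (Dnaja4, Dnajb4, Dnajc24 and Dnajc4), beside 4 of the 32 without the core. Without CD8 KO 18 h replicate 2, Dnaja4 and Hspbp1 were, beside 2 of the 32, and without CD4 WT 0 h replicate 1 Dnaja4 was. Their median KO minus WT was 0.15 (CD4) and 0.12 (CD8) at 0 h and 0.04 (CD4) and -0.12 (CD8) at 18 h, against -0.05, 0.06, -0.01 and 0 in the 32 members without it. Stimulation of WT CD4 cells gave 8 calls upward and 2 downward among the 20 (median 0.39), against 6 and 5 among the 32 (median 0). In WT CD8 cells the calls were 4 and none among the 20 (median 0.14), against 6 and 1 among the 32 (median -0.06). A match here is a run of letters in a window and no evidence of binding.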

How the data were processed

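Total RNA of the sorted T cells went through 2 rounds of amplification and biotin labelling and was hybridised to Affymetrix mouse arrays, 16 in 8 groups. The deposited values are log2 signals per probe set that the authors made with the package affy, whose version and summary method are not given in the sources used here; array medians were 5.24 to 5.43, and the precision is limited by the number of arrays. Of 22690 probe sets, 64 were controls, 20380 named 1 gene and 691 several; the brightest probe set stood for each of 12393 genes, and 38 of the 63 members had more than 1. Normalization between arrays hides a change of total RNA per cell.

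Group means were fitted over all genes with limma 3.58.1 in R 4.3.3 (8 residual degrees of freedom, 4.32 added by the prior), and the two-sided p-values were adjusted by the method of Benjamini and Hochberg over all genes in each contrast. The fit was tested on simulated data with independent noise, in which 100 genes changed by 1 and 100 by 2 on the log2 scale. For KO minus WT in CD4 cells at 18 h it recovered 57% and 90% of them. For 18 h minus 0 h in WT CD4 cells it recovered 59% and 96%. Of the unchanged genes 6 and 7 were called. A gene that is not called may thus have changed by a fold of 2. In the data 26.2% of all genes were called in the second comparison, far more than were changed in the simulation. The share recovered there may thus differ from that in the data. Deviations of same-numbered arrays from their group means were correlated in all 6 pairs of CD4 groups (0.26 to 0.45) and all 6 of CD8 groups (0.18 to 0.56), so that the numbers pair arrays within a lineage, and values with this replicate block are given where they change a call. The members, classes, partner list and marker lists were chosen with earlier results of these data known. Genes were named by a rule that took the CCT ring, HSP90, the main HSP70 and HSP110 genes and Dnajb1, each member called between genotypes, the highest and lowest 3 called per class with stimulation, up to 4 called per comparison of lineages, and the partners of largest change; Dnajc12, Dnajc24, Dnaja4, Dnajb4, Dnajc5, Dnajb6, Hspb1, Hspa1l, Hspa2, Hspa12b and further members in the closing section were named after their values were seen. Promoter windows are from RefSeq (GRCm38.p6), and the windows printed use the start farthest upstream where a gene has several. In the motif counts a match in the window of any annotated start of a gene was counted. Genes with more annotated starts thus had more chances to match. Alternatives were the mean of all probe sets, no x or s suffix probe sets, array medians subtracted, quantile normalization, limma's treat at a fold of 1.5, no minimum fold, no dim genes, 1 lineage alone, replicate blocks, array weights, and leaving out each array or the 3 of lowest RNA integrity.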

Additional observations from a re-analysis of the deposited data

Results flagged for a closer look

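Hspa1b, an inducible HSP70 gene, stood out because its response to stimulation differed between the genotypes in CD4 cells by the test of that difference. The response in KO minus the response in WT was 2.27 ± 0.47 on the log2 scale (limma adjusted p = 0.0355), with the value falling from 8.08 and 8.54 to 4.65 and 4.81 in WT arrays and from 7.73 and 8.53 to 6.32 and 7.32 in KO arrays. The WT values at 18 h lie under the median of all values, so the difference may be understated. Without CD4 WT 0 h replicate 1 it was 2.50 ± 0.52 and not called (adjusted p = 0.0742), and it was called in 8 of the 16 fits that left out an array. The call was also lost under limma's treat and in the fit of CD4 arrays alone. With the other probe sets of Hspa1b the difference was 2.41 and 1.89.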

How the results depend on the processing

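The number of members called was recomputed under each setting, and 113 of 154 such counts were within 1.5 times the reported ones; of 4873 values, those of each call and, between genotypes, of the members always named or called there, 4545 kept their direction and side of the threshold, 321 lost a call, 6 gained one, and 1 reversed, Hsp90aa1 in stimulated KO CD8 cells (-0.27 with the mean of all probe sets). Over all 63 members, 14 comparisons and 29 settings, 322 of 23618 values lost a call and 180 gained one. The cause of these changes was not tested. Where the share of all genes called under a setting is not given here, a count below is no result about the members. KO minus WT in CD4 cells at 0 h gave 1 with the replicate block. KO minus WT in CD8 cells at 0 h gave 1 with array medians subtracted, with quantile normalization, without dim genes and with array weights, and 2 with the block. KO minus WT in CD4 cells at 18 h gave 7 with array medians subtracted, 1 under treat, 4 with 1 lineage alone, 6 with the block, 7 without the 3 arrays of lowest RNA integrity and 6 with array weights. KO minus WT in CD8 cells at 18 h gave 2 with the mean of probe sets, 0 under treat, with 1 lineage alone and with array weights, 3 without dim genes, 6 with the block and 3 without the 3 arrays. Under treat, stimulation gave 9, 3, 6 and 2 in WT CD4, WT CD8, KO CD4 and KO CD8 cells; the last was also 5 with the mean of probe sets, 6 with 1 lineage alone, 3 without the 3 arrays and 3 with array weights. The difference of responses in CD4 cells gave 0 under treat and with 1 lineage alone. CD8 minus CD4 gave, in WT at 0 h, 0 under treat and 1 without the 3 arrays; in KO at 0 h, 1 with the mean of probe sets and with quantile normalization and 0 under treat; in WT at 18 h, 0 under treat and 2 without the 3 arrays; and in KO at 18 h, 17 with array medians subtracted, 0 under treat, 4 without the 3 arrays and 1 with array weights.

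Leaving out 1 array at a time gave ranges, for KO minus WT, of 0 to 0 and 0 to 1 at 0 h and 1 to 3 and 1 to 12 at 18 h in CD4 and CD8 cells. For stimulation they were 19 to 27, 8 to 15, 16 to 21 and 4 to 13 in WT CD4, WT CD8, KO CD4 and KO CD8 cells, the lowest being without CD8 WT 18 h replicate 2 in WT CD8 and without CD8 KO 0 h replicate 1 in KO CD8 cells, with 5 without replicate 2 of that group. For the difference of responses they were 0 to 1 and 0 to 2, and for CD8 minus CD4 0 to 3, 0 to 2, 0 to 2 and 1 to 17 in WT and KO at 0 h and WT and KO at 18 h. The 12 and the 17 arose without CD8 KO 18 h replicate 1, and the 1 in KO at 18 h without CD4 KO 18 h replicate 2. A group left with 1 array was assumed to vary like the others. Without CD8 KO 18 h replicate 1 that group was the array of lowest RNA integrity alone. The shares of all genes called in the fits that left out an array are not given here, so these ranges are no result about the members.

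Over both lineages the replicate numbers correlated negatively (-0.60 to -0.12 in 16 pairs); with the numbers crossed between lineages, an alternative chosen after seeing the data, CD8 minus CD4 gave 2 members in WT at 0 h, 2 in KO at 0 h, 2 in WT at 18 h and 13 in KO at 18 h, and uncrossed 2, 2, 1 and 9. Beside the calls given with the results, the replicate block added Dnajc18, Dnajc24 and Dnajc9 in stimulated WT CD4 cells, Dnajc18, Dnajc24 and Dnajc7 in WT CD8, Hspb11 in KO CD4 and Dnajc3 in KO CD8 cells, and changed no other call with stimulation. Subtracting array medians moved the median of all genes by -0.27 in CD8 minus CD4 in KO at 18 h, by -0.13 in KO at 0 h, by 0.16 with stimulation in KO CD4 cells, by -0.14 in KO minus WT in CD8 cells at 0 h and by 0.11 in CD4 cells at 18 h. No detection call is used here, so changes of values below the median of all values may be understated.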
